A study of Mus with 6 samples.

Results

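Potassium channel genes of the mouse hippocampus were compared between mice with and without forced swim stress (FSS). A gene was taken as a member when the array annotation named it alone for a row of the deposited table and its symbol began with one of the subfamily names of pore-forming or accessory potassium channel subunits, such as Kcna, Kcnj, Kcnk or Kcnip. This rule used symbols and no measured values. It gave 85 genes of the 19938 with a row of their own, and for Kcna2, Kcnh8 and Kcnma1, which have 2 rows each, the row with the higher mean level was used. Kcnj10, Kcnj13 and Kcne2, which mark astrocytes or choroid plexus, and antisense transcripts were left out. The samples were 3 control mice, which did not swim, and 3 FSS mice, which swam for 11 min a day on 5 days in water of 25 °C and 25 cm depth. All were male C57BL/6JJmsSlc mice aged 10 to 11 weeks, with no genetic change, and each array held RNA of the whole dissected hippocampus of 1 mouse. Per the methods of the study, the tissue was taken days after the last swim and after a tail suspension test, and not every mouse measured by array entered its comparison. Any other mouse was not analysed here. Levels are log2 values made by robust multi-array averaging (RMA), and a difference is the mean of FSS mice minus that of control mice on this scale.

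Potassium channels let potassium leave the cell and thereby set the resting potential, end action potentials and limit repetitive firing. Voltage-gated channels are built from 4 pore-forming subunits, inward rectifiers and leak channels act near rest, and calcium- and sodium-activated channels couple ion entry to the after-potentials of a spike. In hippocampal neurons these currents shape dendritic integration, axonal release and spike adaptation. Accessory subunits change the gating or the surface number of the pores they bind.

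All 10 measured markers of hippocampal principal neurons lay in the upper part of the level distribution, above the median of all rows. Their mean level was 9.91 to 10.02 in control mice and 10.02 to 10.06 in FSS mice, with 1 of 10 markers higher (Prox1). Markers are counted as higher or lower at an unadjusted p under 0.05 from limma, a test described below. Of all 21789 rows, 2.49% were higher and 2.66% lower at this threshold, and no row passed after Benjamini-Hochberg adjustment. The mean level of 7 astrocyte markers was 10.41 to 10.48 in control mice and 10.53 to 10.58 in FSS mice. Of these, 3 were higher (Aqp4 by 0.33, Gfap by 0.16 and Gja1 by 0.11). Kcnj10 (0.076), Slc1a3 (0.027), Slc1a2 (0.016) and Aldh1l1 (-0.037) did not pass. For 5 mural cell markers it was 7.95 to 8.04 and 8.07 to 8.13, with 1 higher (Acta2), and for 4 meningeal markers it was 8.18 to 8.24 and 8.32 to 8.42, with 1 higher (Lum). For 5 microglial markers it was 8.69 to 8.88 and 8.86 to 8.96, with 1 higher (Cx3cr1). For 7 choroid plexus markers it was 6.71 to 7.05 and 6.99 to 7.18, with 1 higher (Ttr, by 0.95), and for 6 neocortex markers it was 8.62 to 8.73 and 8.58 to 8.66, with 1 higher (Rorb, by 0.14) and 1 lower (Foxp2, which fell by 0.20). No measured marker of striatum, thalamus, interneurons, oligodendrocytes or endothelial cells passed in either direction. The mean levels of astrocyte, mural and meningeal markers did not overlap between control and FSS mice. The part of any of these markers in the differences of potassium channel genes was not tested. In bulk tissue, fewer cells of a type and less RNA per cell cannot be told apart.

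Potassium channel genes differed little between FSS and control mice. At an unadjusted p under 0.05 from limma, which moderates the variance of each gene with that of all rows, 1 of the 85 genes was higher in FSS mice (Kcne3) and 3 were lower (Kcna5, Kcnj1 and Kcnu1). This was 1.18% and 3.53% of the members, beside 2.49% of all 21789 rows tested that were higher and 2.66% that were lower, so the members' shares were near the background. None passed after Benjamini-Hochberg adjustment over all rows, the smallest adjusted p of a member being 0.943. No member met the thresholds of the study, a log2 fold change over 0.5 in size with an unadjusted p under 0.05, which 0.0688% of all rows met. The median difference of the members was -0.014, beside 0.0039 for all genes with 1 row each. The difference was above 0 for 35 members and below 0 for 50, so that 41.2% of the members and 52.5% of all genes lay above 0. The differences ran from -0.19 (Kcnv2) to 0.21 (Kcne3), and 68 members (80%) differed by less than 0.1, as did 79.2% of all genes. No member differed by more than 0.25, a size that 1.89% of all genes exceeded.

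The intervals show which differences these arrays leave possible. For each of the 85 members the 95% interval from limma lay inside -0.5 to 0.5, the size used by the study, and for 61 it lay inside -0.25 to 0.25. Of all genes, 96.5% and 66.1% had intervals inside these bounds. The widest reach was that of Kcnmb1 (-0.22 to 0.49) above 0 and of Kcnv2 (-0.47 to 0.084) below it. Each interval covers 1 gene and is not widened for the number of genes.

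**Figure D1:**
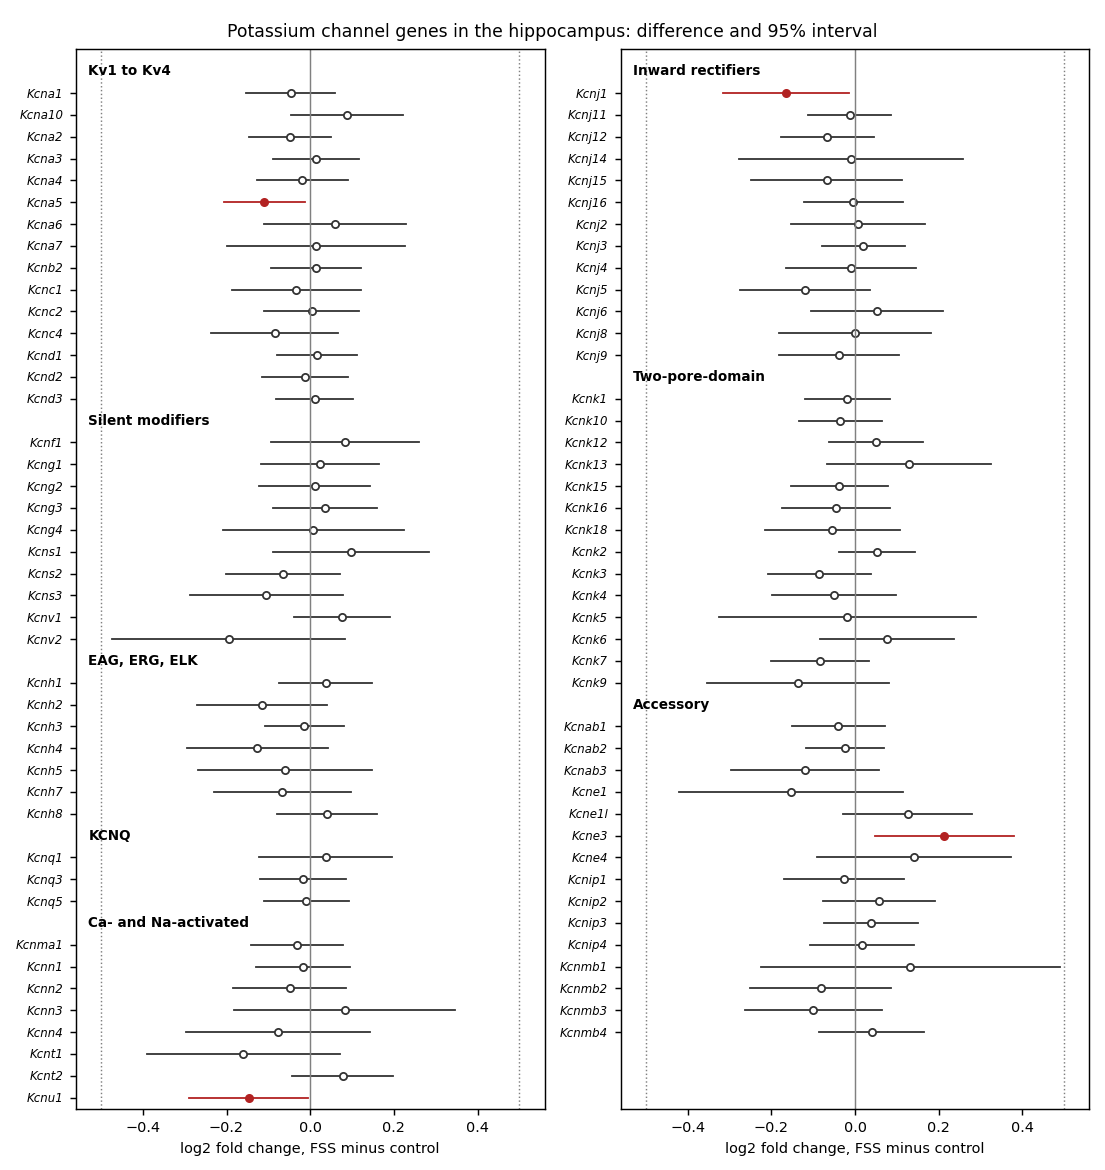
The x axis gives the log2 fold change, FSS mice minus control mice, of the 85 potassium channel genes on the y axis, arranged by role. Circles are estimates from 3 mice per group and lines are 95% intervals from limma, red and filled where the unadjusted p was under 0.05 (Kcne3, Kcna5, Kcnj1 and Kcnu1), and dotted lines mark -0.5 and 0.5, which no interval reaches.

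The 4 genes that passed the unadjusted threshold are not those known for the main currents of hippocampal neurons. Kcne3 encodes a single-span accessory subunit that is best known for holding KCNQ channels open in epithelia. Its levels were 5.50, 5.72 and 5.51 in control mice and 5.83, 5.81 and 5.74 in FSS mice. All 3 FSS mice lay above all 3 control mice, and control mouse 2 lay next to FSS mouse 3. The difference was 0.21 (standard error 0.0701, 95% interval 0.047 to 0.38, adjusted p = 0.943), which is 1.16-fold. Without 1 mouse at a time it was 0.17 to 0.29, and it no longer passed without control mouse 1, control mouse 3, FSS mouse 1 or FSS mouse 2.

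Kcna5 encodes a delayed rectifier of the Kv1 family known from heart and vascular smooth muscle. It had levels of 6.03, 6.01 and 5.96 in control mice and 5.88, 5.90 and 5.89 in FSS mice, and the FSS mice lay close together below every control mouse. The difference was -0.11 (standard error 0.0407, 95% interval -0.21 to -0.013, adjusted p = 0.943). Kcnj1 encodes an inward rectifier of the kidney tubule. Its levels were 5.27, 5.29 and 5.42 in control mice and 5.08, 5.24 and 5.17 in FSS mice, without overlap, and the difference was -0.16 (standard error 0.0632, 95% interval -0.31 to -0.014, adjusted p = 0.943). Kcnu1 encodes a sperm channel related to the large-conductance calcium-activated channel. Its levels were 5.67, 5.64 and 5.60 in control mice and 5.38, 5.50 and 5.58 in FSS mice. The lowest control mouse (mouse 3, at 5.598) lay just above the highest FSS mouse (mouse 3, at 5.580). The difference was -0.15 (standard error 0.0598, 95% interval -0.29 to -0.0045, adjusted p = 0.943). Each of the 4 differences kept its sign without any 1 mouse, but none passed in every omission, and Kcna5 passed only without control mouse 3 and Kcnu1 only without FSS mouse 3. Kcnj1 passed without control mouse 1 or FSS mouse 2. Kcna5, Kcnj1 and Kcnu1 did not pass when limma followed the dependence of variance on level or after a further quantile normalization of the arrays.

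Groups did not overlap for 7 members. The FSS mice lay above the control mice for 4 (4.71%, beside 6.02% of all rows) and below them for 3 (3.53%, beside 4.25% of all rows). With 3 mice in each group, the smallest two-sided p that an exact permutation of the labels allows is 0.1. The 3 lower genes were those above, and Kcne3 was joined by Kcnk2, Kcnv1 and Kcne1l. Kcnk2 encodes the leak channel TREK-1, which opens on stretch and arachidonic acid and whose loss in mice has been linked to resistance in tests of depression-like behavior. Its levels were 8.89, 8.91 and 8.91 in control mice and 8.95, 8.95 and 8.97 in FSS mice. The mice of each group lay within 0.025 of each other, so a separation as small as 0.053 (standard error 0.0383, 95% interval -0.038 to 0.14, adjusted p = 0.951) was enough to part the groups. With its own variance in place of the moderated one, Kcnk2 passed the unadjusted threshold, which Kcne3 then did not. Kcnv1, a silent subunit that modifies Kv2 channels, had levels of 9.76, 9.75 and 9.65 in control mice and 9.79, 9.83 and 9.77 in FSS mice. FSS mouse 3 lay just above control mice 1 and 2, and the difference was 0.075 (95% interval -0.040 to 0.19). Kcne1l, also known as Kcne5 and an accessory subunit like Kcne3, had levels of 7.188, 7.002 and 7.190 in control mice and 7.205, 7.250 and 7.303 in FSS mice, with a difference of 0.13 (95% interval -0.028 to 0.28).

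**Figure D2:**
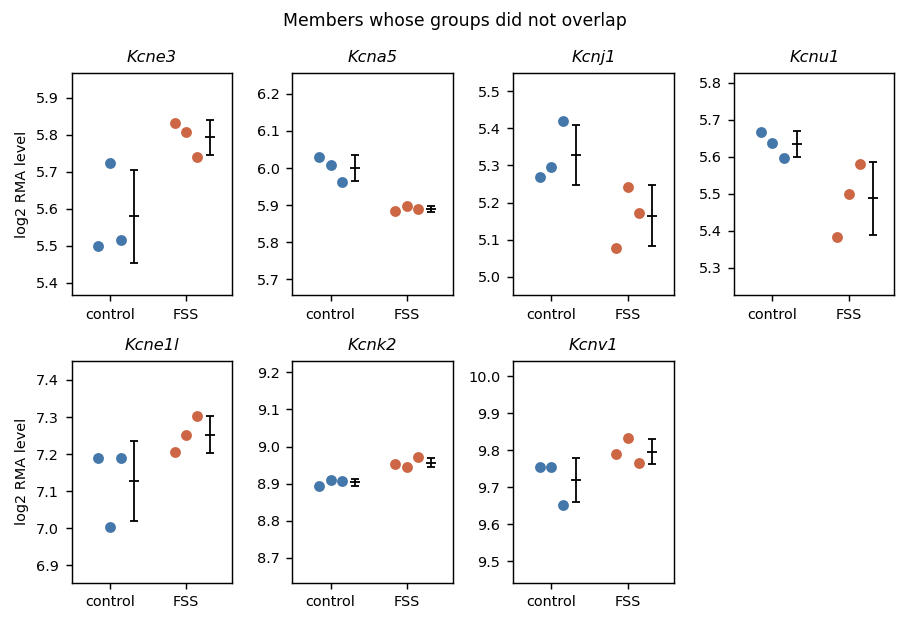
Log2 RMA level (y axis, 0.6 units high in every panel) of the 7 members whose control (blue) and FSS (orange) mice did not overlap. Points are mice 1 to 3 from left to right, bars show the mean and SD over the 3, and the 6 mice lie within the smallest range for Kcnk2.

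Among the pore-forming subunits of the Kv1 to Kv4 families, 15 genes were measured, of which 1 was lower (Kcna5), 0 were higher and 14 did not pass. Their differences ran from -0.11 to 0.087 with a median of 0.0037, and all 15 intervals lay inside -0.25 to 0.25. Kcnd2, whose channel carries the dendritic A-type current of pyramidal cells, had levels of 11.15, 11.12 and 11.20 in control mice and 11.14, 11.12 and 11.17 in FSS mice, with the groups interleaved (difference -0.013, 95% interval -0.12 to 0.091). Kcna1 and Kcna2 encode axonal channels that restrain excitability near the terminal. Kcna1 was at 11.09, 11.16 and 11.11 in control mice and 11.07, 11.04 and 11.11 in FSS mice (difference -0.047, 95% interval -0.15 to 0.060). Kcna2 was at 10.57, 10.62 and 10.59 in control mice and 10.53, 10.58 and 10.53 in FSS mice (difference -0.048, 95% interval -0.15 to 0.050), and its other row gave -0.11 (95% interval -0.27 to 0.050). FSS mice overlapped control mice for both genes. Kcna4, an A-type channel of axons, differed by -0.019 (95% interval -0.13 to 0.090), with levels of 8.98, 9.06 and 9.05 in control mice and 9.01, 9.05 and 8.97 in FSS mice. Kcnc1, which lets interneurons fire fast, was at 9.54, 9.55 and 9.73 in control mice and 9.62, 9.53 and 9.58 in FSS mice, with control mouse 3 above all the others (difference -0.033, 95% interval -0.19 to 0.12). The mean level of 6 interneuron markers was 9.79 to 9.92 in control mice and 9.80 to 9.89 in FSS mice.

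**Figure D3:**
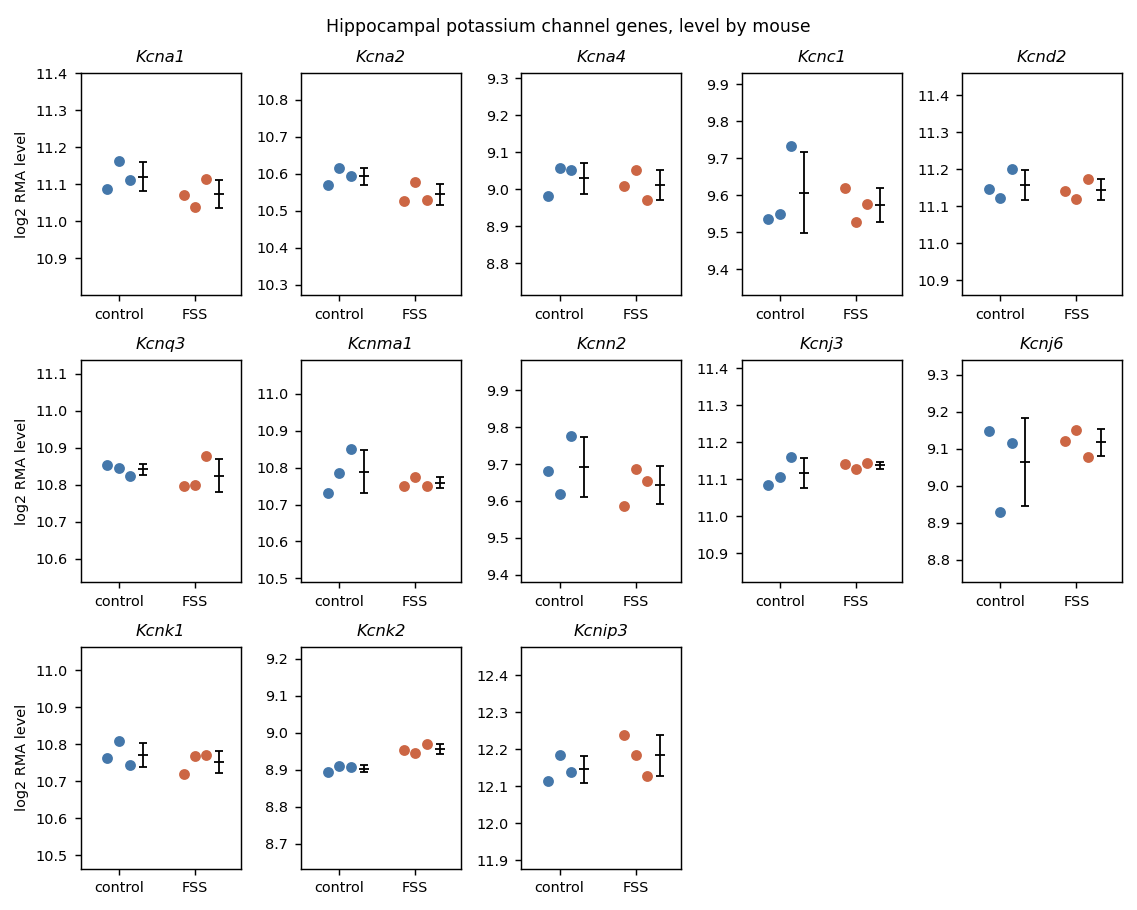
Log2 RMA level (y axis, 0.6 units high in every panel) of 13 members known from hippocampal neurons, in control (blue) and FSS (orange) mice. Points are mice 1 to 3 from left to right, bars show the mean and SD over the 3, and Kcnk2 is the only panel in which the groups do not overlap.

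Of 10 electrically silent subunits, which conduct only together with Kv2 subunits, none passed (median difference 0.017, range -0.19 to 0.097, 7 above 0 and 3 below). Kcnv2 had the largest difference of all members below 0, -0.19 (standard error 0.117, 95% interval -0.47 to 0.084). Its levels were 6.37, 6.53 and 6.19 in control mice and 6.38, 6.03 and 6.09 in FSS mice, so that the mice of each group spread more widely than the group means stood apart and FSS mouse 1 lay among the controls. Leaving out control mouse 2 brought it to -0.11. It passed the unadjusted threshold when FSS mouse 1 (-0.30) or control mouse 3 (-0.28) was left out. Kcng1 was at 9.98, 9.88 and 9.88 in control mice and 9.96, 10.02 and 9.84 in FSS mice (difference 0.023, 95% interval -0.12 to 0.16).

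None of 7 genes of the EAG, ERG and ELK families passed, with 2 above 0 and 5 below and a median of -0.060 in a range of -0.13 to 0.041. Kcnh2, the ERG channel that repolarises cardiac cells and also damps neuronal firing, was at 8.54, 8.62 and 8.64 in control mice and 8.60, 8.39 and 8.46 in FSS mice, where FSS mouse 1 lay among the controls and the others below them (difference -0.12, 95% interval -0.27 to 0.040). Kcnh2 passed as lower without FSS mouse 1, at -0.17, and with the narrow and wide arrays as blocks, and was at -0.068 without FSS mouse 2. Kcnh4, an ELK channel, had a difference of -0.13 (95% interval -0.29 to 0.042), with levels of 7.41, 7.51 and 7.32 in control mice and 7.18, 7.32 and 7.36 in FSS mice. Kcnh1, the EAG channel, differed by 0.037 (95% interval -0.073 to 0.15). The 2 rows of Kcnh8 went apart, at 0.041 and -0.10, and neither passed.

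KCNQ subunits form the M-current, which muscarinic receptors close to raise excitability. Kcnq3 was at 10.85, 10.85 and 10.82 in control mice and 10.80, 10.80 and 10.88 in FSS mice, and Kcnq5 at 10.58, 10.52 and 10.57 in control mice and 10.54, 10.52 and 10.58 in FSS mice, and the groups overlapped for both. Their differences were -0.017 (95% interval -0.12 to 0.086) and -0.0090 (95% interval -0.11 to 0.092). Kcnq1, the subunit of heart and epithelia, differed by 0.037 (95% interval -0.12 to 0.20).

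Of 8 calcium- and sodium-activated pore subunits, 1 was lower (Kcnu1) and 7 did not pass (median difference -0.040, range -0.16 to 0.082, 2 above 0 and 6 below). Kcnma1, the large-conductance channel that sharpens spikes, was at 10.73, 10.79 and 10.85 in control mice and 10.75, 10.78 and 10.75 in FSS mice, with FSS mice inside the range of controls (difference -0.031, 95% interval -0.14 to 0.079). Its other row, at percentile 9.09 of all rows beside 93.6 for the row used, gave 0.10 (95% interval -0.21 to 0.41). Kcnn2, the small-conductance channel of the after-hyperpolarization, was at 9.68, 9.62 and 9.78 in control mice and 9.59, 9.69 and 9.66 in FSS mice (difference -0.049, 95% interval -0.18 to 0.085). For its relative Kcnn3 the levels were 9.29, 9.32 and 9.23 in control mice and 9.63, 9.20 and 9.27 in FSS mice, so that FSS mouse 1 alone lay 0.31 above the next mouse, and the difference of 0.082 was -0.049 without it. Kcnt1, a sodium-activated channel, was at 8.47, 8.86 and 8.65 in control mice and 8.54, 8.43 and 8.52 in FSS mice. Control mouse 2 stood above the rest, and the difference of -0.16 (95% interval -0.39 to 0.071) did not pass. Omitting control mouse 2 gave -0.062, and omitting control mouse 1 gave -0.25, which passed.

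Of 13 inward rectifiers, 1 was lower (Kcnj1) and 12 did not pass (median difference -0.0093, range -0.16 to 0.053, 3 above 0 and 10 below). Kcnj3, Kcnj6 and Kcnj9 encode the neuronal channels that G proteins open below GABA-B, serotonin and adenosine receptors. Kcnj3 was at 11.08, 11.11 and 11.16 in control mice and 11.14, 11.13 and 11.14 in FSS mice, and the FSS mice lay inside the range of the controls (difference 0.020, 95% interval -0.079 to 0.12). Kcnj6 was at 9.15, 8.93 and 9.12 in control mice and 9.12, 9.15 and 9.08 in FSS mice, with control mouse 2 below the others (difference 0.053, 95% interval -0.11 to 0.21), and Kcnj9 differed by -0.039 (95% interval -0.18 to 0.10). Kcnj11, the pore of neuronal ATP-sensitive channels, differed by -0.013 (95% interval -0.11 to 0.086). Kcnj8, its vascular relative, differed by -0.00071 (95% interval -0.18 to 0.18), while the mural cell markers stood at 7.95 to 8.04 in control mice and 8.07 to 8.13 in FSS mice. Kcnj16, which forms glial channels together with the product of Kcnj10, differed by -0.0045 (95% interval -0.12 to 0.11). Kcnj10, left out of the members, differed by 0.076 (95% interval -0.036 to 0.19) and did not pass. Of the 7 astrocyte markers given above, 3 passed as higher.

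None of 14 two-pore-domain leak channels passed (median difference -0.036, range -0.14 to 0.13, 4 above 0 and 10 below). Kcnk1 was at 10.76, 10.81 and 10.74 in control mice and 10.72, 10.77 and 10.77 in FSS mice (difference -0.019, 95% interval -0.12 to 0.083). The acid-sensitive channels Kcnk3 and Kcnk9 had differences of -0.085 (95% interval -0.21 to 0.038) and -0.14 (95% interval -0.35 to 0.081). For Kcnk9 control mouse 2 was the highest at 9.90 and FSS mouse 3 the lowest at 9.47, with the other 4 between 9.61 and 9.69, and the difference was -0.054 without control mouse 2. Kcnk7, a silent member of the family, differed by -0.083 (95% interval -0.20 to 0.034). Kcnk13, the resting channel of microglia, was at 7.04, 6.92 and 6.79 in control mice and 7.14, 6.93 and 7.06 in FSS mice, where control mouse 3 was the lowest and FSS mouse 1 the highest (difference 0.13, 95% interval -0.066 to 0.33), beside the overlapping levels of microglial markers given above.

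Of 15 accessory subunits, 1 was higher (Kcne3), 0 were lower and 14 did not pass (median difference 0.016, range -0.15 to 0.21, 8 above 0 and 7 below). Kcnip3 encodes a calcium-binding protein that joins Kv4 channels and also represses transcription. It was at 12.12, 12.19 and 12.14 in control mice and 12.24, 12.18 and 12.13 in FSS mice (difference 0.038, 95% interval -0.075 to 0.15). The other Kv4-binding proteins Kcnip1, Kcnip2 and Kcnip4 had differences of -0.026, 0.057 and 0.016. The beta subunits of Kv1 channels, Kcnab1, Kcnab2 and Kcnab3, had differences of -0.040, -0.024 and -0.12. Kcnmb4, the neuronal beta subunit of the large-conductance channel, differed by 0.040 (95% interval -0.086 to 0.17). Kcnmb1, its beta subunit in smooth muscle, varied more between mice than any other member, with levels of 7.03, 6.56 and 6.79 in control mice and 7.18, 6.73 and 6.86 in FSS mice. FSS mouse 1 and control mouse 1 were the highest and control mouse 2 the lowest (difference 0.13, standard error 0.15). Omitting FSS mouse 1 gave a difference of 0.0024, omitting control mouse 1 gave 0.25, and the mural cell markers are given above. The remaining Kcne members, Kcne1 and Kcne4, differed by -0.15 and 0.14, and neither passed. Both values rested on single mice, with Kcne1 at -0.027 without control mouse 1 and -0.24 without control mouse 2, and Kcne4 at 0.039 without control mouse 3 and 0.22 without control mouse 2. With narrow and wide arrays, by the SD of all rows, as blocks, Kcne4 passed as higher.

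Members were also split by level. Of the 85 members, 54 had a mean level above the median of all rows and 31 did not. Among the 54, 0 passed the unadjusted threshold in either direction (limma), beside 2.61% of all such genes that were higher and 1.04% that were lower. When the fit was made without the dim rows 0 passed as well, beside 4.81% and 1.78% of the rows kept. The 4 genes that passed were among the 31, with mean levels at percentiles 13.3 (Kcnj1), 16.9 (Kcnu1), 18.7 (Kcne3) and 22.5 (Kcna5) of all rows. Of these 31 members 3.23% were higher and 9.68% lower, beside 2.4% and 4.31% of all genes at or below the median level. With so few genes no difference between the members and all genes is read from these shares. The median standard error was 0.051 for the brighter members and 0.069 for the dimmer ones, beside 0.051 and 0.080 for all genes split in the same way. Of the brighter members 42.6% lay above 0, beside 62.6% of all brighter genes, and of the dimmer members 38.7%, beside 42.6%. These shares are descriptions, since the genes were measured on the same 6 mice and do not vary independently.

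**Figure D4:**
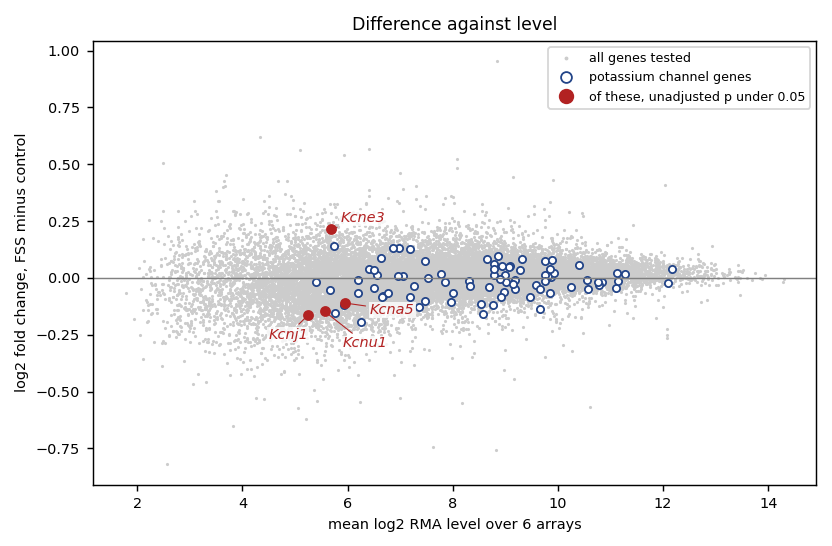
Log2 fold change (FSS minus control, y axis) against the mean log2 RMA level of the 6 arrays (x axis). Grey points are all 19938 genes, open circles the potassium channel genes and red points the 4 with an unadjusted p under 0.05, all of which lie at levels under 6 where the grey cloud is wide.

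The spread between mice was of the same order as the differences between groups. Over the 6 mice a member ranged by 0.19 (median), from 0.044 (Kcnd3) to 0.62 (Kcnmb1). The difference between groups exceeded the pooled within-group SD for 27 members, and exceeded the range within each group for 3 (Kcna5, Kcnj1 and Kcnk2). These counts were not made over all genes, so they are not read as a trait of the members. A range over 0.3 was found for 19 members, of which 13 were dim and 6 bright, the latter including Kcnk9, Kcnn3 and Kcnt1. Control mouse 2 was the highest of the 6 for 19 members and FSS mouse 1 for 18, and FSS mouse 2 was the lowest for 22 and FSS mouse 1 for 20, where an even spread would give 14.2 for each mouse. Such counts were not made over all genes. The SD of the deviations over all genes was also largest in control mouse 2 (0.110) and FSS mouse 1 (0.102). The median deviation of the members from their own means was 0.021 in control mouse 2 and between -0.0056 and 0.0030 in the other 5. In the whole table, the median deviation was between -0.011 and 0.011.

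**Figure D5:**
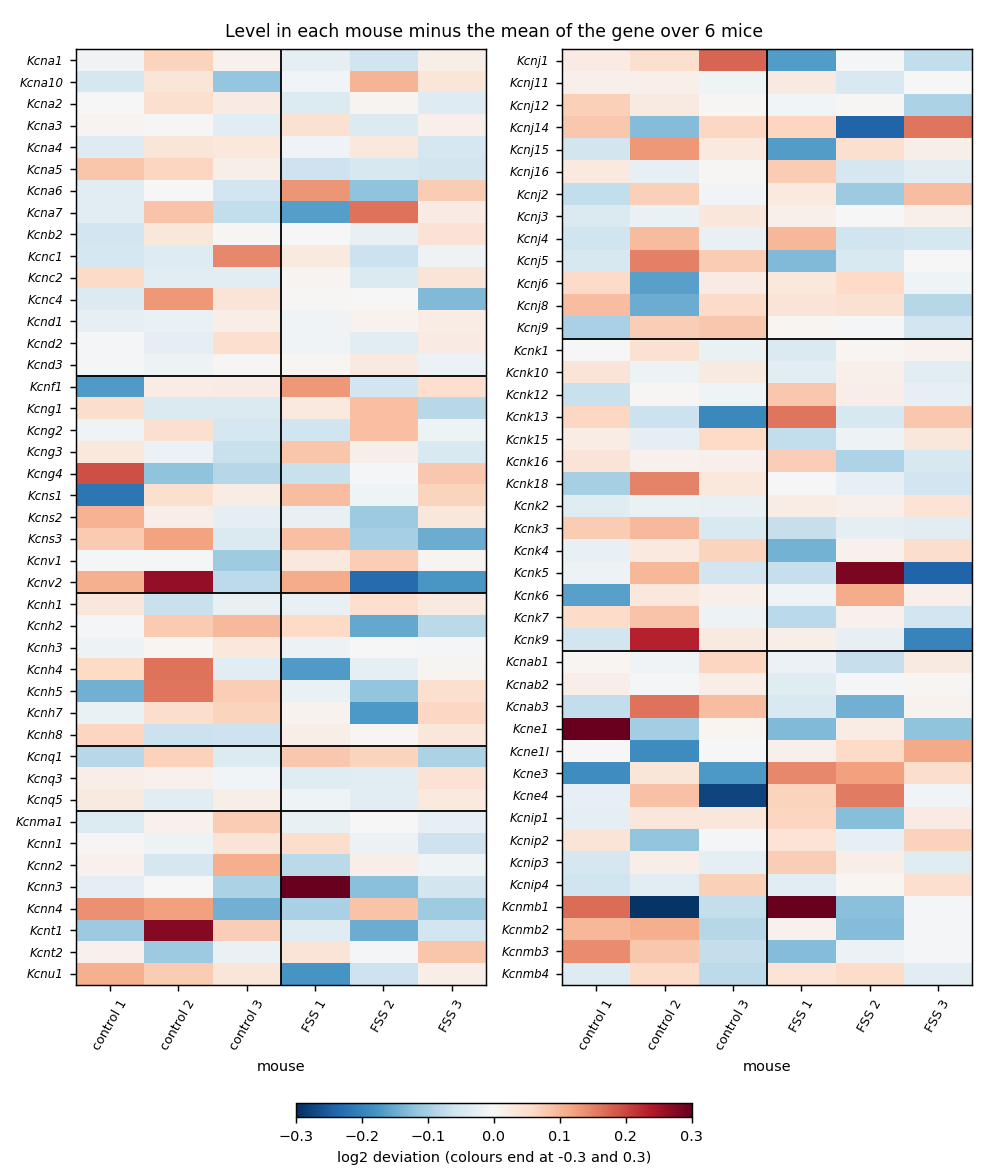
Level of each potassium channel gene (rows, arranged by role) in each mouse (columns) minus the mean of that gene over the 6 mice, in log2 units, with red above and blue below the mean. Most rows are pale on both sides of the vertical line between control and FSS mice, and the strong colours belong to single mice, such as FSS mouse 1 for Kcnn3 and control mouse 2 for Kcnt1.

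Genes that work with these channels were compared as well. Of 39 listed partners, 33 were measured, among them auxiliary proteins of Kv4 and of the large-conductance channel, anchoring proteins of the axon, sulfonylurea receptors, calmodulins, sodium pump subunits, chloride cotransporters and receptors that open or close potassium channels. None passed an unadjusted p under 0.05 from limma, beside 2.49% of all rows that were higher and 2.66% lower. None did with any 1 mouse left out either. Their median difference was 0.010, all 33 differed by less than 0.1, and 21 (63.6%) lay above 0. Above the median level lay 28 of the partners. Of all genes above it, 89.8% differed by less than 0.1 and 62.6% lay above 0. Lrrc55, an auxiliary protein of the large-conductance channel, was the one partner whose groups did not overlap, with levels of 8.28, 8.35 and 8.35 in control mice and 8.42, 8.44 and 8.37 in FSS mice (difference 0.082, 95% interval -0.025 to 0.19). This was 3.03% of the partners, beside 6.02% of all rows with FSS mice above control mice, and no partner lay below, beside 4.25%. Dpp6, which speeds Kv4 channels in dendrites, differed by -0.020 (95% interval -0.11 to 0.076). Ank3, the scaffold that holds KCNQ channels at the axon initial segment, differed by -0.026 (95% interval -0.13 to 0.074). Chrm1, the muscarinic receptor that closes KCNQ channels, differed by 0.016 (95% interval -0.094 to 0.13), and Htr1a, a serotonin receptor that opens G protein-gated inward rectifiers, by 0.079 (95% interval -0.076 to 0.23).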

How the data were processed

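RNA from the hippocampus of 3 control and 3 FSS mice was hybridised to 1-colour Affymetrix Mouse Gene ST arrays, with the mice kept apart. The authors deposited log2 levels computed from the scanner files by RMA, which corrects background, equalises the distributions of the arrays and summarises the probes of a transcript cluster. The submitters' processing notes name Affymetrix Expression Console and RMA without versions. RMA compresses differences of dim genes. Labeling kit and RNA amount are given differently in the labels and the methods.

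Of 28944 rows, 21789 carry 1 symbol in the array annotation, 1621 several and 5534 are unnamed here. All 85 members matched RefSeq genes of GRCm38.p6 by gene ID. No sequence or coordinate was used.

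The contrast of FSS against control mice used limma 3.58.1 (lmFit, eBayes; R 4.3.3) on the 21789 rows without covariates, with p two-sided and adjusted by Benjamini-Hochberg over these rows. For data in general, the methods of the study name Student's t-test (equal variances), the Mann-Whitney U-test (unequal variances) and ANOVA with Tukey-Kramer (multiple comparisons). They name none for the arrays, and Student's t-test was run as an alternative. The limma code was first checked on simulated data. Replicates are mice, so p sets the difference between groups against the spread between mice, which limma moderates with that of all rows. Named genes are members past an unadjusted p under 0.05, in each role group the member with the highest level and that with the smallest p, and 15 fixed members known from hippocampal neurons, of which 13 are reported here, and others named were chosen after their values were seen. Members and lists were chosen with earlier results of these data known. Alternatives were other variance models and tests, array weights, normalizations, row choices, a filter on dim rows, blocks for array spread or for replicate number, and the omission of each mouse.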

Additional observations from a re-analysis of the deposited data

How the results depend on the processing

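The number of potassium channel genes that were lower, 3 at an unadjusted p under 0.05, was 0 with a variance trend or quantile normalization and 1 with the methods' t-test (1 higher) or with narrow and wide arrays, by the SD of all rows, as 2 blocks (4 higher). With these blocks none of Kcna5, Kcnj1 and Kcnu1 was lower, the 1 lower gene was Kcnh2, and Kcna10, Kcne4 and Kcnv1 were higher beside Kcne3. Of all rows, 3.36% were higher and 2.55% lower with these blocks. The share of all rows that were lower was 2.14% with the variance trend, 2.72% with quantile normalization and 2.04% with the methods' t-test. Without dim rows 0 members were higher and 0 lower, beside 4.81% and 1.78% of the rows kept. Both member counts were also 0 at an unadjusted p under 0.01, for which no share over all rows is given. Without 1 mouse at a time, 0 to 1 genes were higher and 0 to 4 lower, beside 1.71% to 3.42% and 1.79% to 4.23% of all rows. Only 1 of the 4 lower genes without control mouse 1 or control mouse 3 was also lower with all mice, and none of the 3 without FSS mouse 1 was. Robust variances, array weights, median centring, all rows and the mean of the rows of a gene kept the same 1 higher and 3 lower genes. The median difference of -0.014 was -0.027 with quantile normalization, -0.025 with median centring and -0.026 to -0.0081 without each mouse, while the median of all rows was 0.0049 as deposited, -0.00063 after quantile normalization and -0.0062 after centring. After Benjamini-Hochberg adjustment the methods' t-test and every other alternative left 0 rows under 0.05. No member passed the thresholds of the study under any alternative, and no partner passed with any 1 mouse left out. The groups of 6 or 7 members did not overlap under either further normalization. No share over all rows is given for these normalizations, so the counts are not read as a trait of the members.

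The deviations of same-numbered mice from their group means correlated at -0.048, 0.14 and 0.24. Differently numbered mice were not compared, so these values cannot decide whether the replicate numbers of the labels pair the mice. A replicate block for these numbers gave 2 higher members (Kcne3 and Kcnmb1) and 1 lower (Kcnj1), beside 3.23% and 3.63% of all rows.

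Of the genes named by the rule given above, those past the threshold kept their sign in every alternative that tested them. Among the genes named by that rule, signs turned only for those with small differences that did not pass. Kcnma1 was at 0.035 with the mean of its rows, of which the row not used elsewhere is dim (percentile 9.09). Kcng1 was at -0.00044 with array weights. Without each mouse the differences ran over -0.043 to 0.0014 for Kcna4, -0.069 to 0.030 for Kcnc1 and -0.029 to 0.0094 for Kcnd2. They ran over -0.016 to 0.071 for Kcng1 and -0.015 to 0.095 for Kcnj6. Of all 85 members, 57 kept their sign without each mouse, and no such count is given for all genes. The cause of the changes of sign was not tested. Precision is limited by the 6 arrays, and the deposited table gives no call of detection for dim genes.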
